A study of Mus musculus with 6 samples.

Results

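The genes described here carry out or control vitamin D dependent calcium absorption in the small intestine. They are S100g, Trpv6, Atp2b1, Vdr, Cyp24a1 and Cyp27b1, 6 of the 18193 genes measured, and they were found by matching the platform's gene symbol. Probe sets with exactly 1 symbol were used, and the probe set that stands for each gene was chosen by its measured signal, as the one with the highest mean over the 6 arrays. The genes themselves were selected with their difference between mutants and controls already known, so their values and p-values are a description of that difference and support nothing beyond it.

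RNA came from the distal jejunum of 6 mice, 3 control and 3 mutant littermates, killed at 7 months of age after injection of ketamine and xylazine. In mutants Hnf4a was deleted in the intestinal epithelium by a Cre driven from the 12.4-kb villin promoter. Hnf4a encodes a nuclear receptor of gut, liver and kidney. The labels give both groups the strain B6.129X1(FVB)-Hnf4atm1.1Gonz/J, kept pathogen free, and they do not say whether control animals carried the Cre. Pieces of whole jejunum were hybridised, 1 array per animal, so muscle, stroma and immune cells contributed RNA, and fewer cells of a type cannot be told apart from less RNA per cell.

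Calcium crosses the absorptive cell in steps. The channel TRPV6 admits it at the brush border, calbindin-D9k, the product of S100g, carries and buffers it through the cytosol, and the plasma membrane pump PMCA1, encoded by Atp2b1, expels it at the basolateral side. The hormone form of vitamin D drives this route through its receptor, encoded by Vdr, which binds DNA with a retinoid X receptor. Cyp27b1 makes the hormone, chiefly in kidney, and Cyp24a1, a classical target of the receptor, inactivates it. The route is strongest in the duodenum and weakens along the jejunum, and calcium also passes between cells through pores of claudin proteins.

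Upstream sequence of S100g and Trpv6 is shown because both are known targets of the vitamin D receptor on the same route, yet S100g was the gene that rose and Trpv6 stayed below the array median. Each window is the 250 bases before the RefSeq start in build GRCm38.p6, read 5′ to 3′ along the gene, on the minus strand for both. Capitals mark AGGTCA, the half-site of many nuclear receptors, or its reverse complement, and CAAAGTCCA, a motif bound by HNF4 proteins.
S100g, chrX:162964600-162964849: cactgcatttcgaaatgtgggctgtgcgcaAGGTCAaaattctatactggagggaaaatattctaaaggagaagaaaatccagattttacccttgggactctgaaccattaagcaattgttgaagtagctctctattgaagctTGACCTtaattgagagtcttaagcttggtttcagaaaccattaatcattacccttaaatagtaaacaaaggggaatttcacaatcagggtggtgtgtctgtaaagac
Trpv6, chr6:41636406-41636655: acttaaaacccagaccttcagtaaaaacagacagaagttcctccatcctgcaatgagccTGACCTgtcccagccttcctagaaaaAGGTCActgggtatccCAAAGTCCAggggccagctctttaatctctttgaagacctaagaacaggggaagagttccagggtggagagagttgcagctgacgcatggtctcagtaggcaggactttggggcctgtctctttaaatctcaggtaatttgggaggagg

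The S100g window held AGGTCA 2 times, starting 220 and 107 bases before the start, and CAAAGTCCA 0 times. The Trpv6 window held AGGTCA 2 times, and CAAAGTCCA once, from 149 to 141 bases before the start. On either strand, 4607 of 32851 RefSeq promoter windows of this length held AGGTCA, and 126, or 0.384%, held CAAAGTCCA. The vitamin D response element DR3, a direct repeat of the half-site with a short spacer, was in 0.222% of windows and in neither of these. The 1 window of Vdr, the 2 of Atp2b1 and the 1 of Cyp27b1 held none of the 3 motifs. Promoter windows were found for 5 of the 6 genes. A match describes letters in this stretch and does not show that a factor binds there.

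Hnf4a, the deleted gene, was lower in every mutant. Its deposited log2 signal was 11.82, 11.76 and 11.57 in controls 1, 2 and 3 and 8.83, 8.83 and 9.82 in mutants 1, 2 and 3, a difference of -2.56 ± 0.25 SE (limma's moderated test, adjusted p = 0.00756). Mutant 3 kept the highest signal of the mutants at this probe set, the brightest of 4 for Hnf4a. At the others the differences were -3.06, -2.64 and -1.17, with every mutant below every control. Mutant 3 was also the highest mutant where the difference was -3.06 or -2.64. At the dimmest probe set it was the lowest, with 6.47, 6.05 and 6.03 in mutants 1, 2 and 3. The difference there, -1.17, missed the threshold over all probe sets (limma's moderated test, adjusted p = 0.0921). All 9 measured markers of absorptive enterocytes lay above the array median on all 6 arrays, so the labelled tissue showed its epithelium.

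S100g was the member that rose. Its log2 signal was 4.09, 4.25 and 4.84 in controls 1, 2 and 3 and 5.75, 6.47 and 5.92 in mutants 1, 2 and 3. The groups did not overlap, and the lowest mutant stood 0.91 above the highest control on the log2 scale. The control mean was 4.39 ± 0.40 (SD, n = 3) and the mutant mean 6.05 ± 0.38 (SD, n = 3). The difference was 1.66 ± 0.24 SE, or 3.15-fold higher, with a 95% interval of 2.15-fold to 4.62-fold (limma's moderated test, adjusted p = 0.0307 over all 18193 genes). It was the 69th smallest p of the series and the 19th largest rise.

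Signal of S100g in controls was close to the array medians, which lay between 3.93 and 3.98, and the lowest control was at the 51.8th percentile of its array's probe sets. Signals this low hold much background, and the size of the fold is uncertain there. The gene had 1 probe set, so no other probe set checks it. The call was lost without control 1, control 2, mutant 2 or mutant 3 (adjusted p up to 0.134 over the single arrays left out), while the difference stayed between 1.45 and 1.88. It also missed the threshold when p-values were adjusted over all 45037 probe sets (adjusted p = 0.0547).

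Trpv6, the entry channel, read below the array median on all 6 arrays. Its log2 signal was 3.65, 3.51 and 3.65 in controls 1, 2 and 3 and 3.40, 3.47 and 3.68 in mutants 1, 2 and 3. The highest and the lowest array were both mutants, and the groups overlapped. The difference was -0.09 with a 95% interval from -0.34 to 0.17 (limma's moderated test, adjusted p = 0.839). Its 1 probe set stood between the 39.2th and 45.0th percentiles of the arrays' probe sets. Signals this low hold much background.

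**Figure D1:**
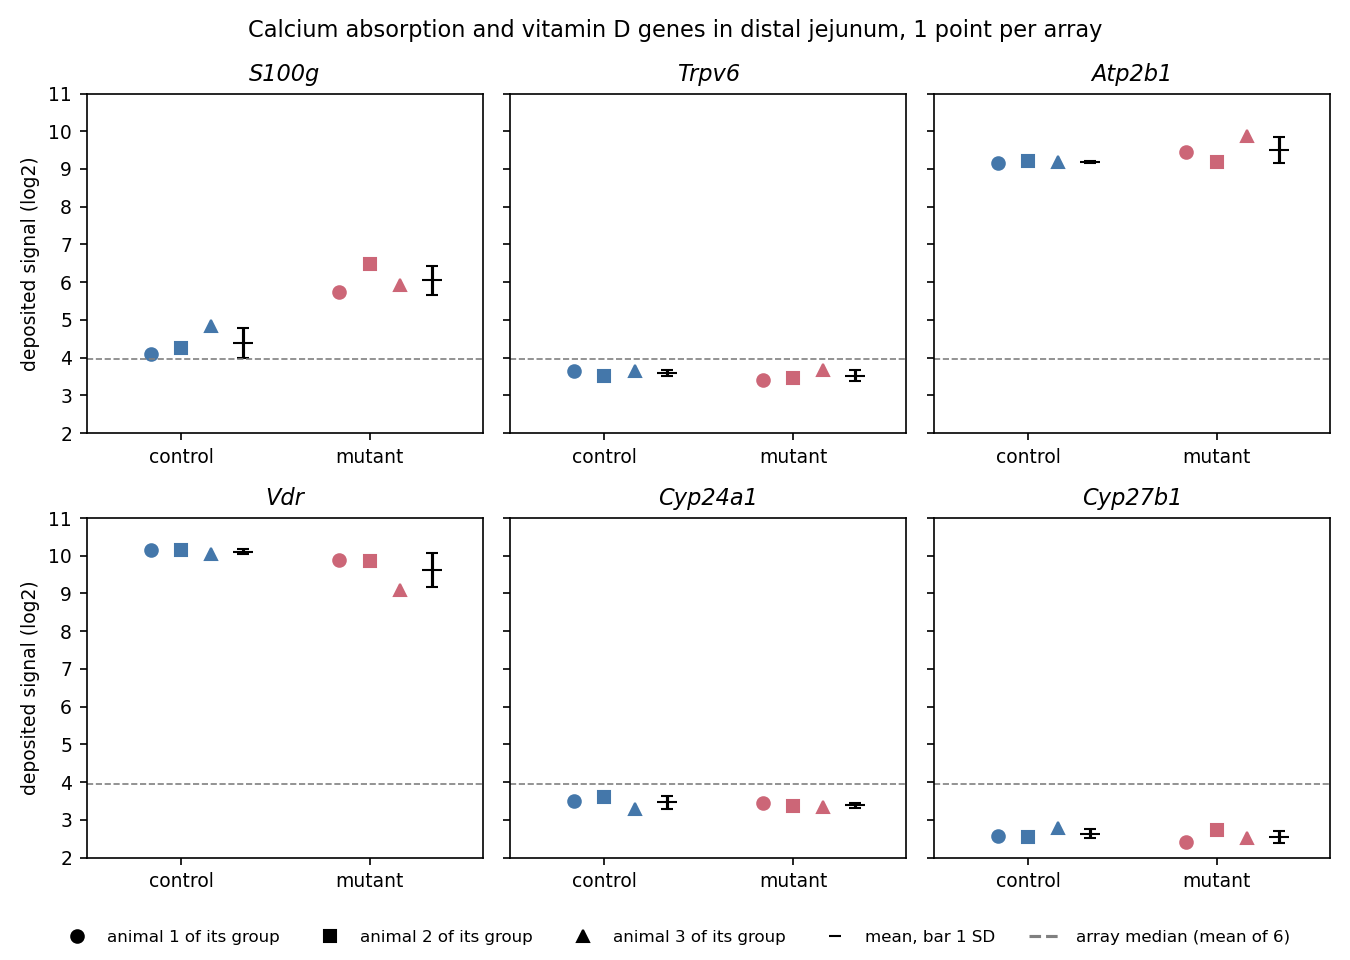
Deposited log2 signal (vertical axis) of each gene in the 3 control and 3 mutant arrays, 1 point per animal, with the group mean and a bar of 1 SD; the dashed line is the array median. S100g separates, from 4.09 to 4.84 in controls and from 5.75 to 6.47 in mutants, Atp2b1 and Vdr lie far above the median, and Trpv6, Cyp24a1 and Cyp27b1 lie below it on every array.

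Atp2b1, the exit pump, was well expressed and did not pass the test. Its log2 signal was 9.16, 9.21 and 9.18 in controls 1, 2 and 3 and 9.46, 9.18 and 9.88 in mutants 1, 2 and 3. Controls lay close together, whereas mutant 2 lay among them and mutant 3 stood highest. The difference was 0.32 with a 95% interval from -0.07 to 0.71 (limma's moderated test, adjusted p = 0.517), or 0.13 without mutant 3. The other probe sets differed by 0.22 and -0.10, so the probe sets did not share a direction. In all of them mutant 3 was the highest array.

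Vdr, the receptor, was well expressed in both groups, and every mutant read below every control. Its log2 signal was 10.15, 10.14 and 10.04 in controls 1, 2 and 3 and 9.88, 9.87 and 9.10 in mutants 1, 2 and 3. Mutants 1 and 2 lay 0.16 or more under the lowest control, and mutant 3 stood well below both. The difference was -0.50 with a 95% interval from -0.97 to -0.03, and it did not pass the test (limma's moderated test, adjusted p = 0.379). Without mutant 3 it was -0.24. The other probe set gave the same order of groups, with a difference of -0.48.

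Cyp24a1, which inactivates the hormone and is commonly read as a sign of receptor activity, lay below the array median on all 6 arrays. Its log2 signal was 3.51, 3.60 and 3.28 in controls 1, 2 and 3 and 3.45, 3.36 and 3.34 in mutants 1, 2 and 3. The groups overlapped, and the difference was -0.08 with a 95% interval from -0.35 to 0.18 (limma's moderated test, adjusted p = 0.849). A dimmer probe set differed by -0.14, at the 14.7th percentile or lower on every array, and there every mutant, at 2.45 to 2.48, was below every control, at 2.58 to 2.64 (limma's moderated test, adjusted p = 0.68 over all probe sets).

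Cyp27b1, the activating enzyme, was the dimmest member. Its log2 signal was 2.59, 2.55 and 2.78 in controls 1, 2 and 3 and 2.40, 2.73 and 2.52 in mutants 1, 2 and 3. The groups overlapped, the difference was -0.09 with a 95% interval from -0.37 to 0.19 (limma's moderated test, adjusted p = 0.851). Its lowest array put it at the 5.85th percentile of probe sets.

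**Figure D2:**
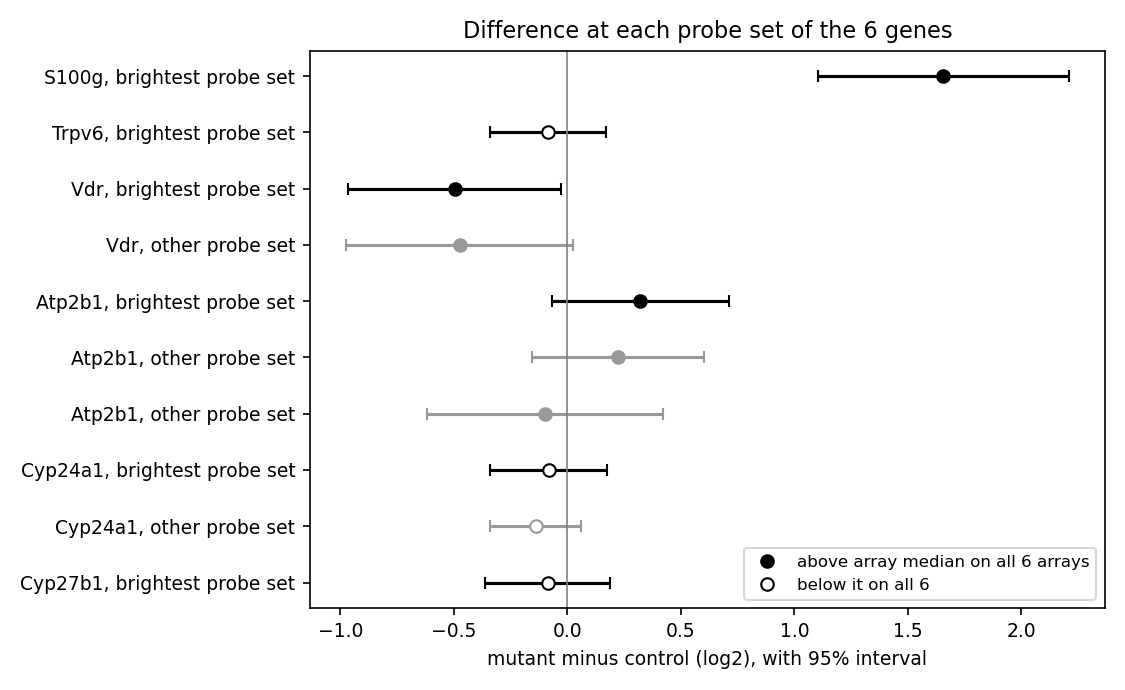
Mutant minus control difference (horizontal axis, log2) at each of the 10 probe sets of the 6 genes, with its 95% interval from the fit over all probe sets; filled points were above the array median on all 6 arrays and open points below it on all 6. The S100g interval lies farthest from 0, both Vdr probe sets lie below 0 at -0.50 and -0.48, and the 3 probe sets of Atp2b1 fall on both sides of 0.

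Of the 6 genes, 1 rose, 0 fell and 5 did not pass. Over all genes 0.198% rose and 0.33% fell, or 0.528% in either direction. Groups did not overlap for 2 of the 6, against 17.1% of all genes. In S100g all mutants were higher, as in 6.93% of all genes, and in Vdr all were lower, as in 10.2%. These shares come from the contrast with which the genes were chosen, so nothing is read from them.

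Genes around the route were taken from 8 lists that together held 85 other measured genes. Of these 0 rose and 1 fell. Their median difference was 0.00 (log2), beside -0.01 over all genes. Groups did not overlap in 29 of the 85, or 34.1%, beside the 17.1% of all genes, and 25 had an unadjusted p under 0.05, or 29.4% beside 12.1%. Mutant 3 was the mutant farthest from the control mean in 45 of the 85, or 52.9%, and in 37.0% of all genes. The lists were chosen with earlier results of these data known, so nothing is read from these shares.

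Other carriers and buffers of calcium showed 0 rises and 0 falls among 17 measured genes, with a median difference of -0.01. The smallest p-values belonged to Nipsnap1 and Pdzd3, whose proteins have been described as partners of TRPV channels. Pdzd3 had log2 signals of 8.06, 8.15 and 8.22 in controls and 7.42, 7.64 and 7.20 in mutants, a difference of -0.73 ± 0.13 SE (limma's moderated test, adjusted p = 0.0702). Nipsnap1 differed by -0.64 ± 0.11 SE (adjusted p = 0.0598). In both genes every mutant was below every control. Atp2a3, a calcium pump of the endoplasmic reticulum, differed by 0.49 ± 0.14 SE the other way (adjusted p = 0.212).

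Relatives of the members were also read, chosen after their values were seen. The plasma membrane pump genes Atp2b2 and Atp2b4 lay below the array median on all 6 arrays. For the sodium-calcium exchanger gene Slc8a1 the 95% interval of the difference ran from -0.28 to 0.27. The larger calbindin gene Calb1 lay below the median on all 6 arrays. Anxa2 and S100a10, whose proteins bind TRPV6, were well above the median on every array and differed by 0.14 and 0.03.

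Genes of the path between cells did not pass either, 0 of 6, and their median difference was 0.11. Cldn15, a cation pore of the small intestine, read 10.77, 10.74 and 10.93 in controls and 10.28, 10.10 and 9.91 in mutants, a difference of -0.72 ± 0.12 SE (limma's moderated test, adjusted p = 0.0607). Cldn2, another cation pore, read 9.06, 8.60 and 8.63 in controls and 9.20, 9.31 and 10.53 in mutants, a difference of 0.91 ± 0.33 SE (adjusted p = 0.314). These claudins lay in opposite directions with no overlap between groups, and mutant 3 was the extreme array for both. Cdh1, the epithelial cadherin, differed by 0.33 ± 0.10 SE (adjusted p = 0.249).

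Among vitamin D hydroxylases and carriers, 0 of 6 measured genes passed, with a median difference of -0.08. Cubn encodes cubilin, the cobalamin receptor of the gut, which in kidney also takes up the vitamin D carrier. It read 10.53, 11.81 and 11.34 in controls and 9.69, 9.11 and 8.04 in mutants. Each mutant was below each control, and the difference of -2.28 ± 0.44 SE was the largest of the 85 genes in size but did not pass (limma's moderated test, adjusted p = 0.0832). Cyp27a1, a mitochondrial sterol hydroxylase that can act on vitamin D, read 8.16, 9.18 and 8.77 in controls and 7.75, 7.76 and 7.14 in mutants, a difference of -1.16 ± 0.27 SE (adjusted p = 0.135). Lrp2, the partner of cubilin in kidney, lay below the median on all 6 arrays and differed by -0.14.

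**Figure D3:**
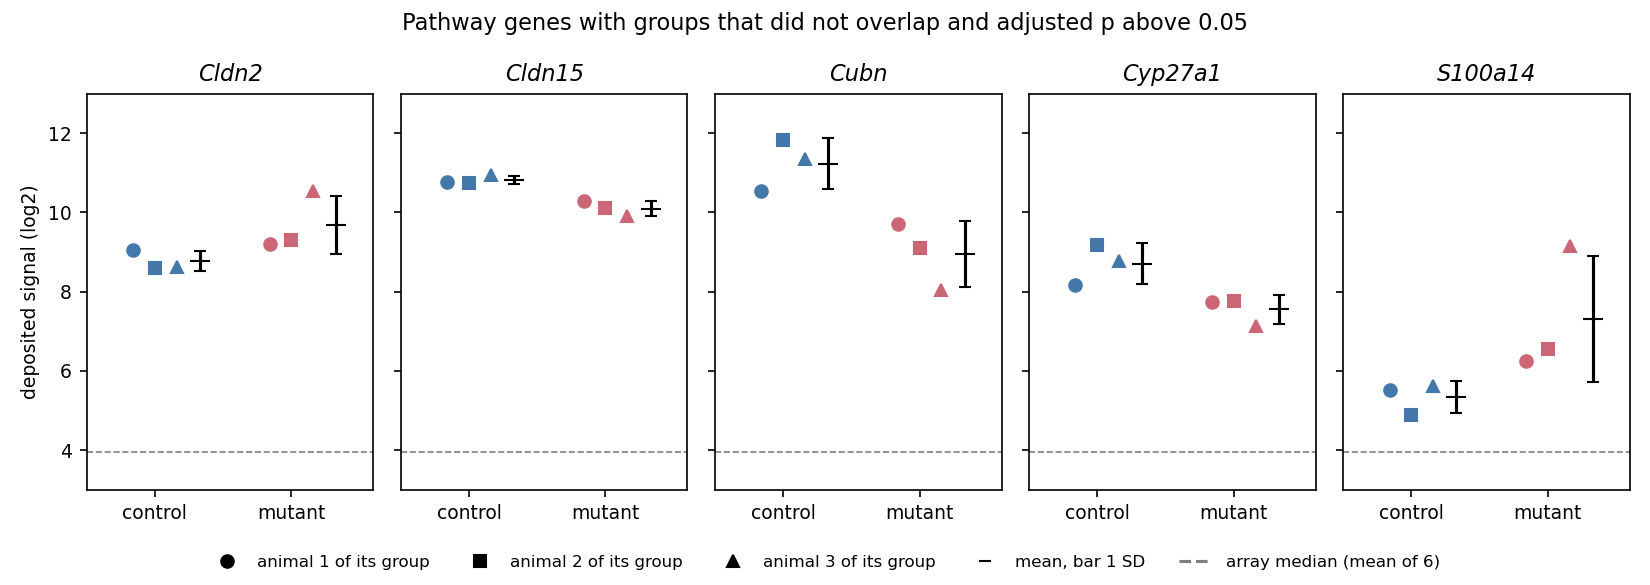
Deposited log2 signal (vertical axis) of 5 genes around the route in each array, 1 point per animal, with group mean and a bar of 1 SD; the dashed line is the array median. In all 5 the groups are separate, with Cldn15, Cubn and Cyp27a1 lower and Cldn2 and S100a14 higher in mutants, and mutant 3 is the mutant farthest from controls, but none passed the test over all genes.

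Partners and coregulators of the receptor had 0 of 12 genes past the test and a median difference of 0.01. Rxra, a retinoid X receptor gene, read 8.22, 8.27 and 8.20 in controls and 8.16, 7.85 and 7.57 in mutants. The order of groups was that of Vdr, with mutant 3 again lowest, and the difference was -0.37 ± 0.15 SE (limma's moderated test, adjusted p = 0.368). The coactivator genes Ncoa3 and Ncoa1 differed by 0.36 ± 0.12 SE and 0.24 ± 0.11 SE (adjusted p = 0.269 and 0.431). Other probe sets of Ncoa1 differed by 0.05 and -0.07.

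Other vitamin D target genes of the intestine lay lower as a list, with a median difference of -0.46, or -0.31 without mutant 3. Of 9 measured genes 0 rose, 1 fell and 8 did not pass. Abcc2, which encodes the efflux pump MRP2, read 8.42, 8.81 and 8.99 in controls and 7.80, 7.45 and 7.36 in mutants, a fall of 2.30-fold (difference -1.20 ± 0.18 SE, limma's moderated test, adjusted p = 0.0319). That call was lost without control 2, control 3, mutant 2 or mutant 3 (adjusted p up to 0.156). A floor on low values left the difference at -1.20 but also ended the call (adjusted p = 0.175). The members of this list are also controlled by other receptors, and the list does not measure the vitamin D receptor alone.

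Further genes of the list were named after their values were seen. Every mutant was below every control in Cyp3a25, Cyp3a11, Abcb1a and Slc15a1, as in 10.2% of all genes. Cyp3a25, a P450 gene, differed by -1.17 ± 0.27 SE (limma's moderated test, adjusted p = 0.129), the drug exporter gene Abcb1a by -0.80 ± 0.27 SE (adjusted p = 0.279) and the peptide carrier gene Slc15a1 by -0.46 ± 0.15 SE (adjusted p = 0.265). Cyp3a11, a drug-metabolising P450, read 11.90, 11.68 and 12.52 in controls and 11.40, 10.58 and 10.76 in mutants, a difference of -1.12 ± 0.26 SE (limma's moderated test, adjusted p = 0.14). The manganese exporter gene Slc30a10 differed by 0.33 (adjusted p = 0.47). Slc37a2, a sugar-phosphate exchanger gene, stayed near the array median and differed by -0.04. The phosphate carrier gene Slc34a2 differed by 0.53 (adjusted p = 0.541), with control 3 the lowest array at 10.20. Cyp3a13, another P450 gene, lay above the array median on all 6 arrays and differed by 0.08. So the listed targets did not share 1 direction. Above the control mean, as S100g was, lay 3, and 6 lay below it.

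Calcium sensors and hormone genes had 0 of 12 past the test and a median difference of 0.07. Stc1, for the calcium-regulated hormone stanniocalcin, differed by 0.55 ± 0.15 SE (limma's moderated test, adjusted p = 0.202), and Fgfr1 by 0.29 ± 0.10 SE (adjusted p = 0.278). Vipr1 differed by -0.21 ± 0.11 SE (adjusted p = 0.546).

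Magnesium and phosphate transport had 0 of 11 genes past the test and a median of -0.11. The magnesium carrier gene Slc41a2 differed by -0.47 ± 0.13 SE (limma's moderated test, adjusted p = 0.19). Trpm7, a divalent cation channel gene, and Cnnm2, for a magnesium transport protein, differed by -0.43 and -0.46 (adjusted p = 0.268 and 0.38). The other probe set of Cnnm2, above the array median on all 6 arrays, differed by -0.02.

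The S100 list, relatives of calbindin-D9k plus the S100-binding protein gene S100pbp, had 0 of 12 genes past the test and a median difference of 0.19. Of these, 11 lay above the control mean. S100a14 read 5.51, 4.88 and 5.62 in controls and 6.25, 6.55 and 9.14 in mutants, a difference of 1.98 ± 0.67 SE (limma's moderated test, adjusted p = 0.285). Mutant 3 stood well above the other mutants. S100a16 differed by 0.86 ± 0.27 SE (adjusted p = 0.249) and S100a13 by 0.40 ± 0.12 SE (adjusted p = 0.221), again with no overlap between groups. Mutant 3 was the highest array of S100a14 and S100a16, whereas mutant 2 was that of S100a13, as it was of S100g.

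**Figure D4:**
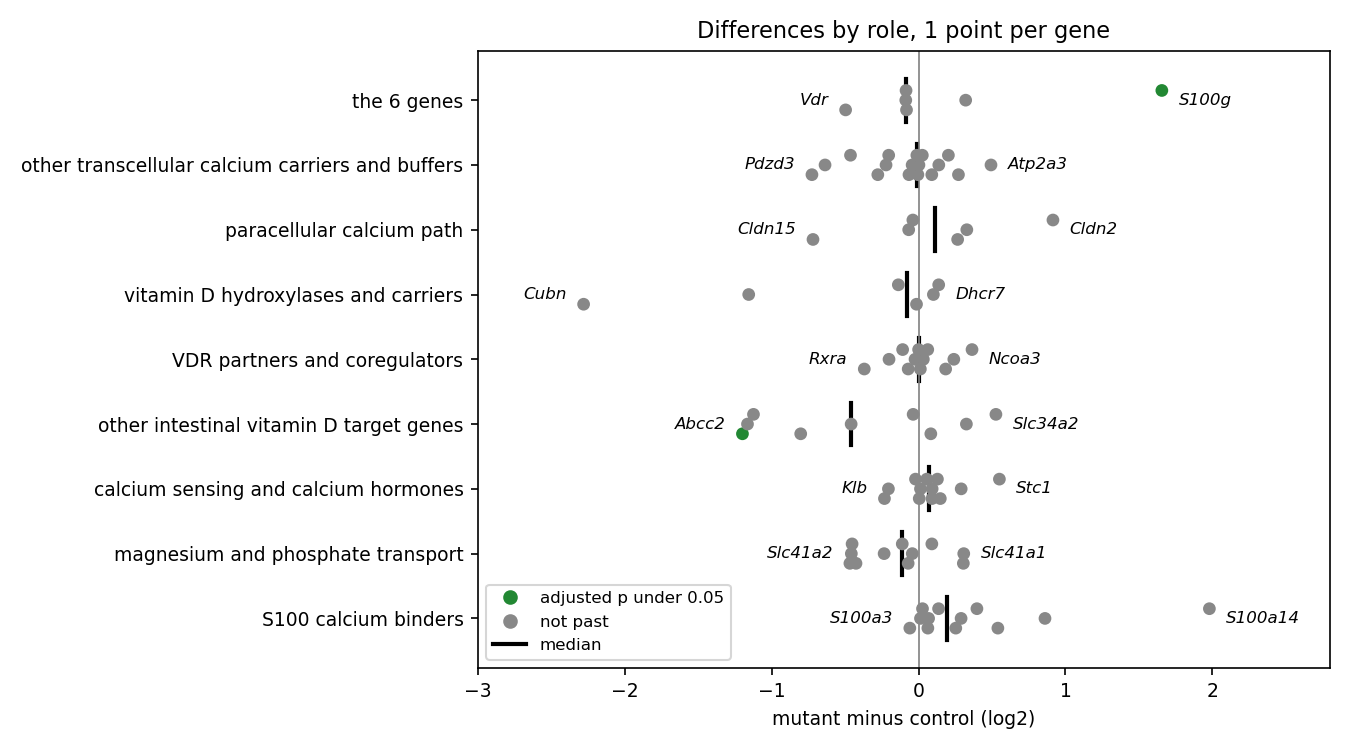
Mutant minus control difference (horizontal axis, log2) of the 6 genes and of the genes of 8 lists, 1 point per gene, with black bars at each list's median and the lowest and highest gene of each list named. S100g and Abcc2 are the 2 genes past an adjusted p of 0.05, and the vitamin D target list has the lowest median, -0.46.

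The genes most like S100g across the 6 arrays were Pipox, Ppm1h, Cyp2c65, Tanc2 and Golm2. They are the 5 highest by Pearson r of log2 signal among 9096 genes brighter than the median gene, with r from 0.979 to 0.990. Pipox, which encodes a peroxisomal oxidase of pipecolate and sarcosine, read 7.06, 7.14 and 7.32 in controls and 7.78, 8.32 and 7.92 in mutants. All 5 had control 3 as the highest control and mutant 2 as the highest mutant, as S100g did. None of the 5 passed the test (adjusted p from 0.056 for Tanc2 to 0.202 for Ppm1h). With 6 arrays in 2 groups, a clear rise in mutants can by itself give a high r, so this is a description.

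For Trpv6 the 5 most alike were Fen1, Ercc6l, Timm8a1, Dcbld1 and Fam214b, with r from 0.977 to 0.987. Their differences lay between -0.19 and -0.03, and none passed the test (adjusted p of 0.744 or more). Trpv6 itself varied by little and near background, so its pattern is weakly defined.

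Some markers of gut region moved with the groups, and S100g is a gene of the proximal gut. Of 10 proximal markers 2 fell, Gip and Onecut2, 0 rose and 8 did not pass. Over all genes 0.33% fell and 0.198% rose, and the markers were chosen with earlier results known. Gip, an incretin of the upper small intestine, read 10.85, 10.75 and 11.06 in controls and 9.07, 8.99 and 8.92 in mutants (difference -1.89 ± 0.11 SE, limma's moderated test, adjusted p = 0.000998). Onecut2, a duodenal transcription factor gene, differed by -0.93 ± 0.12 SE (adjusted p = 0.024). The Onecut2 call needed every array except control 1 (adjusted p reached 0.102 when a single array was dropped). Averaging its probe sets also ended it (adjusted p = 0.188), as did the floor (difference still -0.93, adjusted p = 0.11). Of its 6 values, 5 lay under the array median. Of the 10, 8 lay below the control mean and 2 above it, with a median difference of -0.11. Cybrd1 and Gkn3 lay above, by 0.22 and 0.02, and Slc40a1 and Sct lay below, at -0.04 and -0.03. A dimmer Gkn3 probe set differed by -0.43 (limma's moderated test, adjusted p = 0.23 over all probe sets). The mean of the proximal list was 6.47 to 6.70 in controls and 6.05 to 6.33 in mutants.

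Ileal or colonic markers numbered 10, of which 0 passed the test and 10 lay above the control mean. Of them, 4 lay below the array median on all 6 arrays and differed by 0.006 to 0.13, and 3 lay above it on all 6. The list means were 5.47 to 6.23 in controls and 6.48 to 6.73 in mutants. The largest differences were 3.40 in Fabp6 and 1.96 in Slc10a2. Fabp6, the ileal bile acid binding protein gene, read 9.15, 6.67 and 3.37 in controls 1, 2 and 3 and 9.57, 10.03 and 9.80 in mutants (adjusted p = 0.299, limma's moderated test). The controls thus spread over a wide range in this gene, from control 1 near the mutants to control 3 under the array median. Among these controls the order of S100g was the reverse, lowest in control 1 and highest in control 3. Among mutants the order was the same in both genes, lowest in mutant 1 and highest in mutant 2. Both genes were higher in every mutant than in every control. Slc10a2, the ileal bile acid carrier gene, read 3.31, 2.93 and 3.26 in controls and 3.99, 4.40 and 6.98 in mutants (adjusted p = 0.289). Pyy, with the smallest p of the list, read 7.95, 8.05 and 6.79 in controls and 8.60, 8.43 and 8.47 in mutants (adjusted p = 0.279). The part of gut region in the result was not tested.

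**Figure D5:**
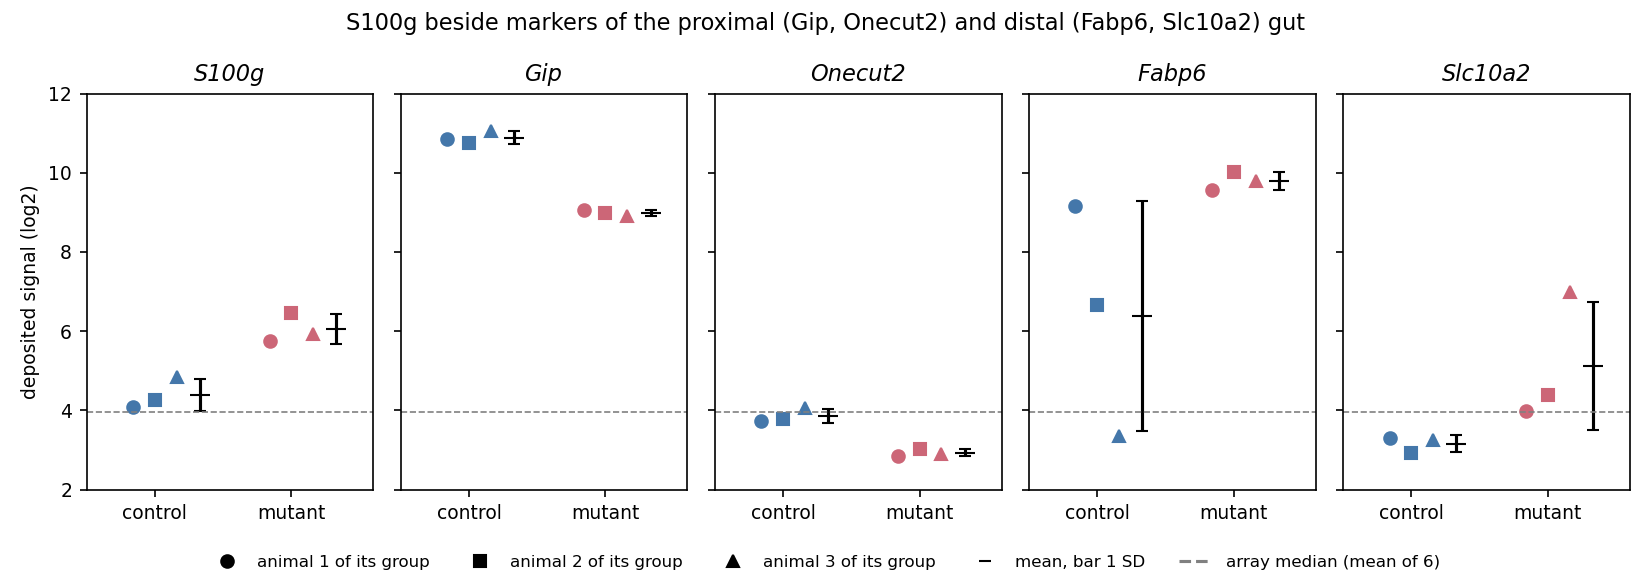
Deposited log2 signal (vertical axis) of S100g, of the proximal markers Gip and Onecut2 and of the distal markers Fabp6 and Slc10a2 in each array, 1 point per animal, with group mean and a bar of 1 SD; the dashed line is the array median. Gip and Onecut2 lie lower in mutants, S100g and Slc10a2 higher, and Fabp6 ranges from 3.37 to 9.15 in controls against 9.57 to 10.03 in mutants.

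Other cell types differed between arrays. Pancreatic acinar markers, 6 measured, had a mean of 7.80 in control 3 against 3.83 to 4.06 elsewhere, and fat markers, 6 measured, 8.28 in mutant 2 against 6.23 to 7.07 elsewhere. These were the arrays with the highest S100g of their groups, and without both of them S100g differed by 1.67 (limma's moderated test, adjusted p = 0.117). T cell markers lay above the control mean in 8 of 8, with list means of 5.96 to 7.35 in controls and 7.14 to 7.91 in mutants, and B and plasma cell markers in 7 of 7, with 6.32 to 7.59 and 7.28 to 7.72. Macrophage and myeloid markers did so in 7 of 8, with 7.07 to 7.15 and 7.26 to 7.56. Goblet cell markers did so in 5 of 7, with 12.7 to 12.9 and 12.9 to 13.1. Absorptive enterocyte markers lay below the control mean in 9 of 9, with 12.8 in all controls and 12.5 to 12.6 in mutants. The list means of smooth muscle, enteric neuron and glia, and red blood cell markers overlapped between groups, though every mutant was below every control in Sox10 (difference -0.21) and Hba-a1 (difference -0.13), neither past the test. Their part in the results was not tested.

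Signal of Y-linked genes marked control 1 and mutant 3 as male, 1 in each group. S100g was higher in mutants within both sexes, by 1.84 between the male pair and by 1.57 between the means of 2 female controls and 2 female mutants. For Vdr the same differences were -1.06 and -0.22, and for Atp2b1 they were 0.72 and 0.12. Within each sex the numbers are too small for a test.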

How the data were processed

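Each of 6 mice had 1 array, and the authors' deposited table holds a log2 signal for every probe set. That it is log2 was inferred from its range, and its normalisation is not stated in the labels. With 64 control probe sets set aside, 45037 entered the analysis. Platform annotation gave 34945 of them 1 symbol, 932 several and 9160 none, leaving 18193 genes.

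The comparison of mutants with controls used limma 3.58.1 in R 4.3.3 (lmFit, eBayes), with group as its single term, two-sided, Benjamini-Hochberg over all genes, called at an adjusted p under 0.05. Precision is limited by the number of arrays. In a simulation of 18193 genes, 200 of them changed, the fit recovered 20.9%, 77.6% and 93.9% of log2 changes of 0.5, 1 and 2, and 6.57% of calls were false. Each gene was drawn independently from a normal distribution, without deviations shared by genes on an array. These rates therefore need not hold for the real arrays. With 3 against 3 an exact permutation test cannot go below 0.1, so none was used.

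The genes and lists were chosen with earlier results of these data known. Alternatives covered scaling, a floor, a filter on dim genes, the choice of probe set, the variance model, array weights, sex, a replicate block and omitted arrays. The text names the 6 genes, Hnf4a, each list's genes past the test or otherwise up to 3 with the smallest p, and the 5 genes most like S100g and Trpv6. Relatives of the members, the vitamin D targets other than Abcc2, and markers beyond these were chosen after their values were seen. Listed genes with no probe set of 1 symbol, such as Trpv5, were not analysed here. Promoter windows come from RefSeq, build GRCm38.p6.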

Additional observations from a re-analysis of the deposited data

How the results depend on the processing

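The S100g difference lay between 1.45 and 1.88 in all 17 alternatives, and its call held in 10 of them. Many of these could not move the difference. The gene has 1 probe set, so the choices of probe set left its values unchanged. The floor, the filter, the variance model, the sex covariate and the replicate block also left the difference at 1.66. Under these settings only the p-value of S100g could change. Its call was lost with values floored at the 20th percentile (difference 1.66, adjusted p = 0.185), with the replicate number as a block (1.66, adjusted p = 0.0527), without control 3 and mutant 2 together (1.67), and in 4 of the 6 fits with 1 array left out (range 1.45 to 1.88, adjusted p from 0.0455 to 0.134). Atp2b1 reversed with its most variable probe set (-0.10, adjusted p = 0.917). Trpv6, Vdr, Cyp24a1 and Cyp27b1 kept their direction and did not pass the test under every alternative that gave a value. Cyp27b1 has no value with the floor, where its 6 values are equal, and the filter on dim genes removed Trpv6, Cyp24a1 and Cyp27b1. Of 96 genes changed over the series, 36 higher and 60 lower, the number became 2 with the floor, 4 without control 3 and mutant 2 together, 62 with the replicate block, 150 with array weights, 194 with sex as a covariate and 22 to 96 with 1 array left out (24, 22 and 41 without control 2, control 3 and mutant 2). Same-numbered animals did not deviate together (r = 0.06, -0.02 and -0.003 over probe sets), so the numbers were not taken to pair them. The cause of these changes was not tested. The replicate block also ended the calls of Abcc2 (adjusted p = 0.107) and Onecut2 (adjusted p = 0.0561), and leaving out control 3 and mutant 2 together ended those of Abcc2 (adjusted p = 0.426), Onecut2 (adjusted p = 0.262) and Gip (adjusted p = 0.0667). The floor ended that of Gip too (adjusted p = 0.051), with its difference still at -1.89. Trpv6, Cyp24a1 and Cyp27b1 lay under the array median, where background makes the size of a difference uncertain.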
